A study of Mus musculus with 4 samples.

Results

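Chemokine ligands are small secreted proteins that direct the movement of leukocytes through G protein-coupled receptors. The genes described here are 10 of them, Ccl22, Ccl17, Ccl3, Ccl4, Ccl5, Ccl9, Cxcl2, Cxcl9, Cxcl10 and Cxcl16, measured in splenic CD4+ dendritic cells. They were found in the deposited table by gene symbol and made up 10 of its 30043 loci. One of these loci carried the names of both Ccl3 and Ccl4, and another was named for Ccl3 alone.

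Dendritic cells from mice given sheep red blood cells (SRBC, 1000000000 cells) were compared with those from mice given PBS (100 uL), 1 h after either injection, with 2 RNA-seq libraries per group. All mice were C57BL/6 and heterozygous for Gpr183, the oxysterol receptor gene that guides these cells in the spleen, so no Gpr183 wild-type animals enter the comparison. The cells had been sorted from spleen as CD11c+ I-Ab+ CD4+ CD8-, with equal numbers per group and a stated purity above 99%. The labels do not say that replicate libraries represent different mice. The p-values given here reflect library-to-library spread, taken largely from the pool of all tested loci, and no more. Part of that spread may be technical.

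Chemokines are named for the spacing of their first cysteines, which are adjacent in the CC family and separated by another residue in the CXC family. Dendritic cells use them to gather the cells they instruct: ligands of CCR4 draw regulatory and type 2 helper T cells, ligands of CXCR3 draw effector T cells and NK cells, and ligands of CXCR2 draw neutrophils. Many of their promoters respond to NF-kB, and their messenger RNAs are typically short-lived, so that levels can change within an hour of stimulation.

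Levels are FPKM values (fragments counted over a transcript, divided by its length in kilobases and by library size). Their sums over loci were 509007 and 558016 in SRBC libraries 1 and 2, against 410321 and 377167 in PBS libraries 1 and 2. From the size of the steps between low values, each library was estimated to hold about 7860000 to 8430000 fragments. Itgax (CD11c) averaged 238 ± 21.9 FPKM after SRBC and 196 ± 22.6 after PBS, and Cd4 averaged 86.1 ± 14.5 and 87.5 ± 1.25 (SD, n = 2 each). Cd8a, which the sort should lack, averaged 2.44 ± 0.0238 FPKM after SRBC and 1.91 ± 1.01 after PBS. Gpr183, heterozygous in both groups and so no check of the labels, measured 70.8 and 73.3 FPKM after SRBC and 21.9 and 18.6 after PBS. Xist was 339 and 306 FPKM in the SRBC libraries and 0.210 and 0.327 in the PBS libraries, and Ddx3y, a Y-linked gene, was 0.0307 and 0.00819 after SRBC and 17.2 and 20.4 after PBS. Sex and treatment therefore cannot be told apart in any difference given here. Of 11020 tested loci, 1488 were called higher and 683 lower after SRBC (limma on log2(FPKM + 1), adjusted p under 0.05), which is 68.5% higher among the calls. Rescaling moved that share to 49.8% after quantile normalization (922 higher, 930 lower) and to 27.6% with TPM (629 and 1648). The median log2 fold change of all tested loci was 0.070 as deposited and -0.33 with TPM, so directions below are relative to the deposited scale.

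After SRBC the chemokine ligand loci were mostly higher, with Ccl22 changing most and Ccl5 called neither way. Of the 9 loci with at least 1 FPKM in all 4 libraries, 8 were called higher and 0 lower by limma, where 13.5% of all tested loci were called higher and 6.2% lower. No ligand locus was lower at an unadjusted p under 0.05 either. In 8 of the 9 both SRBC libraries lay above both PBS libraries, which 34.3% of tested loci did, while 24.7% lay the other way round and 0 ligand loci did. The median log2 fold change was 1.75 over these 9 loci, against 0.090 over the 9888 tested loci with the same minimum. Ccl17, the remaining locus, entered the test through its SRBC values alone and is given apart. Calls for Ccl22, Cxcl10, Cxcl2, Cxcl9 and Cxcl16 held in each of the 14 alternative settings tried, whereas those for the other 4 called loci were each lost in at least 1.

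**Figure D1:**
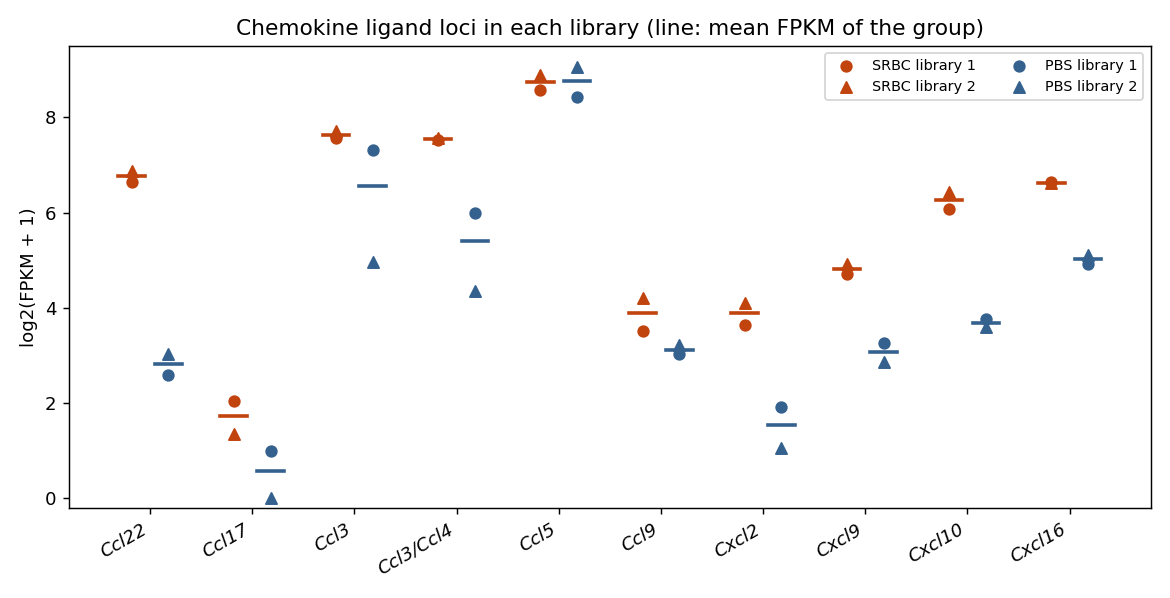
Level of each chemokine ligand locus as log2(FPKM + 1) in the SRBC libraries (orange, left of each pair) and the PBS libraries (blue, right), with circles for library 1, triangles for library 2 and a line at the mean FPKM of the group. Ccl22 stood at 99.4 and 116 FPKM after SRBC and at 5.05 and 7.13 after PBS, while the groups overlapped for Ccl5.

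Promoter sequence is shown for the matched ligands whose calls held in every alternative, Ccl22, Cxcl10, Cxcl2 and Cxcl9, to put the differences beside the DNA next to their start sites. Ccl9, the called locus with the smallest difference, is added for its kB match. Ccl3 is searched but not printed, since the reads of its loci cannot be assigned. RefSeq promoters (GRCm38.p6, the assembly also called mm10) were matched for 7 of the 10 genes. The bases lie upstream of the annotated start, 5′ to 3′ on the gene's strand, and capitals mark matches to the decamer consensus of NF-kB, the kB site, on either strand. The regions are chr8:94745434-94745589 on the plus strand for Ccl22, chr5:92348890-92349139 on the minus strand for Cxcl10, chr5:90903649-90903870 on the plus strand for Cxcl2, chr5:92328080-92328329 on the minus strand for Cxcl9 and chr11:83578637-83578886 on the minus strand for Ccl9.
Ccl22: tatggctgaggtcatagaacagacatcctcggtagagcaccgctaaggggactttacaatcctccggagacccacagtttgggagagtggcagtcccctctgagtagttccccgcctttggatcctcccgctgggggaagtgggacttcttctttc
Cxcl10: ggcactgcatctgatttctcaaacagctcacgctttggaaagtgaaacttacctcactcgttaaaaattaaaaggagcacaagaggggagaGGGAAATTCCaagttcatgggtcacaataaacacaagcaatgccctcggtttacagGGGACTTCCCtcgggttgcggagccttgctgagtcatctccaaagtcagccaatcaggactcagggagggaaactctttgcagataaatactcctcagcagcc
Cxcl2: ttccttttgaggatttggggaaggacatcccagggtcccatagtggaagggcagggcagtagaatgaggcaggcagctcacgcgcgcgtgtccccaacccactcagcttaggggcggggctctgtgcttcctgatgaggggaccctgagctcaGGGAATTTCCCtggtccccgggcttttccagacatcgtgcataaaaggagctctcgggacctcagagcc
Cxcl9: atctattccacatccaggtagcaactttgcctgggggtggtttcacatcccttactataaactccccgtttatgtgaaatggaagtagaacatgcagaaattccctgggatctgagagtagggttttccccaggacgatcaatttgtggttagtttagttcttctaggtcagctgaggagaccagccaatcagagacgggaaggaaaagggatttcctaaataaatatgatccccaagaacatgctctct
Ccl9: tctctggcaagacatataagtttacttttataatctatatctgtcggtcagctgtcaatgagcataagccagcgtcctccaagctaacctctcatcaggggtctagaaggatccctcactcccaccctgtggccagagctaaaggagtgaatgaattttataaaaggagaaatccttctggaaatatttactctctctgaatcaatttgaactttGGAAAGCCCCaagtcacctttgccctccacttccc

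Within 250 bases upstream of the RefSeq start, 3 of 7 matched ligand genes held the kB decamer, as did 3.9% of 32851 promoters in the table. Cxcl10 held it at 159 to 150 and at 103 to 94 bases before the start. Cxcl2 held overlapping matches on both strands, from 97 to 87 bases before the RefSeq start, a count that includes the 28 bases not printed. Ccl9 held one on the opposite strand at 35 to 26. No such letters occurred in this window of Ccl22, the ligand with the largest difference, nor in those of Cxcl9, Ccl3 and Ccl17. The Ccl22 window includes the 94 bases not printed. Cxcl10 also held the core of the interferon-stimulated response element (either strand, 2.98% of promoters) at 213 to 204 bases and the AP-1 letters TGANTCA (either strand, 6.75% of promoters) at 74 to 68, and Ccl9 held those AP-1 letters at 53 to 47. The STAT letters TTCNNNGAA (either strand, 7.02% of promoters) were found in Ccl17, at 99 to 91 bases. These matches describe the sequence and were not linked to binding.

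Ccl22 and Ccl17 encode the ligands of CCR4 and lie on chromosome 8, at 94745590 to 94751699 and 94810453 to 94812036 (GENCODE M21, GRCm38), with Cx3cl1 between them. Ccl22 measured 99.4 and 116 FPKM in SRBC libraries 1 and 2 and 5.05 and 7.13 in PBS libraries 1 and 2. Both SRBC libraries were far above both PBS libraries, and the groups did not overlap. The mean was 17.7-fold higher after SRBC (log2 fold change 3.95 ± 0.23 SE, limma adjusted p = 4.1e-14), which ranked 9 among the log2 fold changes of all tested loci. Across the alternatives its log2 fold change ran from 3.64 to 4.16. In the authors' deposited table Ccl22 had a q-value of 0.0010.

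Ccl17 was the scarcest of the ligands, at 3.11 and 1.57 FPKM in the SRBC libraries and 0.989 and 0 in the PBS libraries. On its transcript of 514 bases these levels stood for about 13.5 and 6.35 fragments after SRBC and 3.99 and 0 after PBS. The log2 fold change was 1.20 ± 0.33 SE (limma adjusted p = 0.0086). The call was lost in 7 of 13 alternatives, among them all 4 rescalings (adjusted p up to 0.080) and the omission of SRBC library 1 or PBS library 2 (adjusted p up to 0.16). The authors' deposited table gave Ccl17 a q-value of 0.49. Cx3cl1, which encodes the membrane-bound ligand of CX3CR1 and starts 20.3 kb past the end of Ccl22, was named after its values were seen. It measured 1.103 and 0.760 FPKM after SRBC and 0.0514 and 0.0795 after PBS, about 30.8 and 19.8 fragments against 1.34 and 2.22, and was below the minimum for testing.

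Cxcl10 and Cxcl9 encode interferon-inducible ligands of CXCR3, the receptor of effector T cells and NK cells, and lie 18.6 kb apart on chromosome 5 (92346638 to 92348889 and 92321347 to 92328079). Cxcl10 measured 66.2 and 85.6 FPKM after SRBC and 12.5 and 11.2 after PBS. The SRBC libraries lay well above the PBS libraries (6.40-fold, log2 fold change 2.57 ± 0.23 SE, limma adjusted p = 3.4e-10). Cxcl9 measured 25.04 and 29.3 FPKM after SRBC and 8.56 and 6.29 after PBS, again without overlap (3.66-fold, log2 fold change 1.75 ± 0.24 SE, limma adjusted p = 2.0e-06). The alternatives gave 2.19 to 2.75 for Cxcl10 and 1.40 to 1.95 for Cxcl9. Cxcl11, the next gene of the cluster and another CXCR3 ligand, was named after its values were seen. It stayed under 1 FPKM in all 4 libraries, at 0.120 and 0.409 after SRBC and 0.124 and 0.0620 after PBS.

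Cxcl2 encodes a neutrophil attractant that acts through CXCR2 (chromosome 5, 90903871 to 90905938). Its level was 11.5 and 16.2 FPKM in the SRBC libraries and 2.76 and 1.09 in the PBS libraries. The groups did not overlap, and both were spread by more than the Cxcl9 groups relative to their level. The mean was 7.20-fold higher after SRBC (log2 fold change 2.39 ± 0.29 SE, limma adjusted p = 2.2e-07), with alternatives from 1.97 to 2.97. Neutrophils are another source of Cxcl2. The summed level of the 9 neutrophil marker loci was 50.01 and 106 FPKM after SRBC and 72.0 and 12.5 after PBS. S100a8, one of these markers, was 16.9 and 43.4 after SRBC and 22.0 and 3.30 after PBS. The sum and S100a8 were highest and lowest in the same libraries as Cxcl2 within each group. PBS library 1 exceeded SRBC library 1 in both but not in Cxcl2. Retnlg, another marker of the list, measured 3.59 and 6.46 after SRBC and 2.02 and 0.642 after PBS, the same library order as Cxcl2. Of the 8 tested neutrophil loci, 2 had both SRBC libraries above both PBS libraries and 0 the other way round. The groups overlapped in the rest. The part of neutrophils in the Cxcl2 difference was not tested. Cxcl1, a close relative named after its values were seen, measured 0.613 and 0.657 FPKM after SRBC and 0 and 0.118 after PBS.

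Cxcl16 encodes a ligand of CXCR6 that is made as a transmembrane protein and shed by ADAM10 (chromosome 11, 70453983 to 70459984). It measured 98.6 and 97.9 FPKM after SRBC and 29.3 and 33.5 after PBS. Both groups were tight and clearly apart (3.13-fold, log2 fold change 1.62 ± 0.22 SE, limma adjusted p = 1.1e-06). Rescaling lowered its log2 fold change to as little as 1.15, with the call kept. Adam10 was at 11.4 and 15.3 FPKM after SRBC and 7.72 and 11.9 after PBS and was not called (limma adjusted p = 0.27).

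Ccl3, Ccl4 and Ccl5 encode inflammatory CC ligands that attract T cells, NK cells and monocytes, and Ccl3 and Ccl5 act on CCR1. The locus named for Ccl3 and Ccl4 measured 183 and 188 FPKM after SRBC and 62.9 and 19.5 after PBS, and its reads cannot be assigned to either gene. The genes lie 13.2 kb apart on chromosome 11 and on opposite strands (Ccl3 at 83647844 to 83649355, Ccl4 at 83662584 to 83664683). The SRBC libraries were nearly equal and above both PBS libraries, which differed 3.22-fold from each other. Its log2 fold change was 2.36 ± 0.30 SE (limma adjusted p = 4.1e-07). It was 1.54 without PBS library 2 and 3.18 without PBS library 1, and neither quantile normalization (limma adjusted p = 0.056) nor a table without a filter on low values kept the call.

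The locus named for Ccl3 alone measured 188 and 208 FPKM after SRBC and 158 and 29.98 after PBS. PBS library 1 was close to the SRBC libraries and PBS library 2 far below all others. The log2 fold change was 1.505 ± 0.37 SE (limma adjusted p = 0.0036). Leaving out PBS library 2 gave 0.33, not called (limma adjusted p = 0.53), and leaving out PBS library 1 gave 2.68. All 4 rescalings, the replicate block and the absence of a filter on low values also ended the call, and the authors' deposited table gave a q-value of 0.17.

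Genes of the immediate early response differed between the PBS libraries in the same direction as Ccl3. Zfp36, which encodes a decay factor of cytokine messenger RNAs, measured 1352 and 1307 FPKM after SRBC and 1957 and 610 after PBS. Fos and Jun, named after their values were seen, measured 78.2 and 73.0 (Fos) and 126 and 148 (Jun) after SRBC and 415 and 104 (Fos) and 386 and 94.5 (Jun) after PBS. PBS library 1 was therefore 3.21-fold above PBS library 2 in Zfp36, 3.997-fold in Fos, 4.08-fold in Jun and 5.26-fold in Ccl3, with 2.52-fold in Cxcl2, 1.36-fold in Cxcl9 and 1.12-fold in Cxcl10. Ccl22 ran the other way, with PBS library 1 at 0.708 of PBS library 2. The part of these genes in the Ccl3 and Ccl4 differences was not tested.

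**Figure D2:**
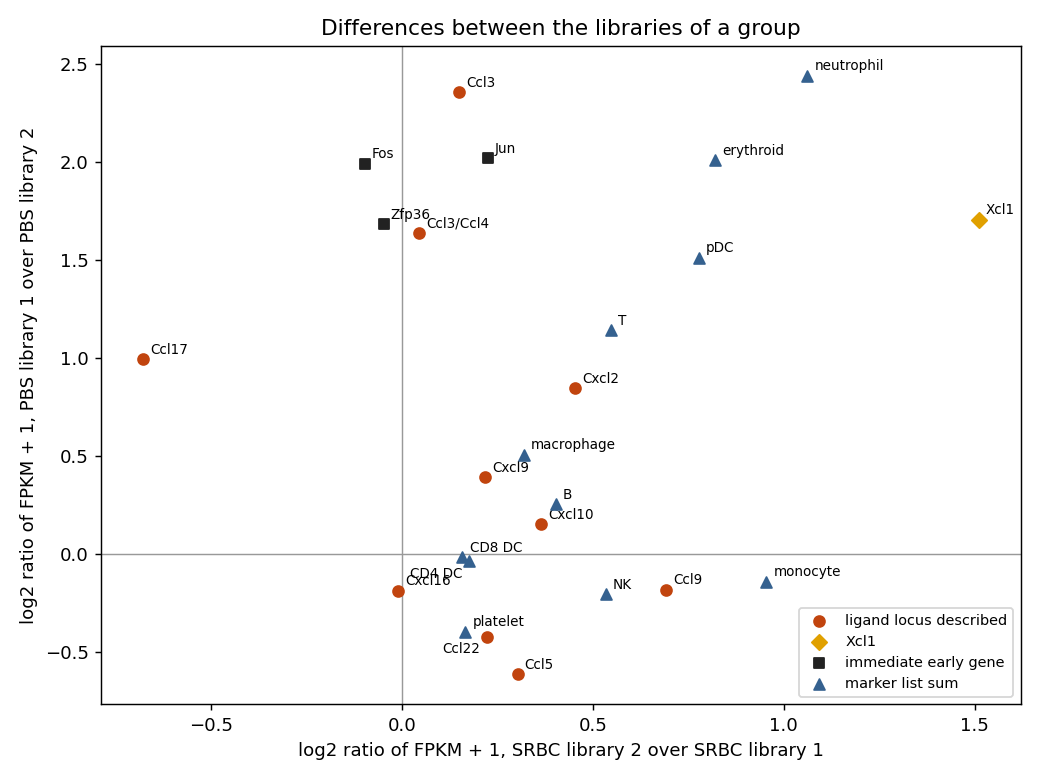
Log2 ratio of FPKM + 1 between the libraries of a group, with SRBC library 2 over SRBC library 1 across and PBS library 1 over PBS library 2 upward, for the ligand loci (orange), Xcl1 (yellow), immediate early genes (black) and summed cell type marker lists (blue). Ccl3 (2.36) and the Ccl3/Ccl4 locus (1.64) lie near Fos (1.99), Jun (2.02) and Zfp36 (1.68) on the upward axis, and Ccl22 (-0.43) and Ccl5 (-0.62) lie below 0.

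Ccl5 was the most abundant ligand in both groups and was not called. It measured 382 and 471 FPKM in the SRBC libraries and 345 and 528 in the PBS libraries, so that both SRBC values fell between those of PBS (limma adjusted p = 0.99, with a log2 fold change of -0.0090 ± 0.25 SE). The gene lies on chromosome 11 at 83525778 to 83530518. Rescaling gave log2 fold changes from -0.59 to -0.024, and none of the 14 alternatives called it. T cells and NK cells also make Ccl5. The 8 T cell marker loci summed to 14.5 and 21.7 FPKM after SRBC and 21.9 and 9.41 after PBS, and Cd3e was 1.77 and 3.25 after SRBC and 4.32 and 0.990 after PBS. The 10 NK cell marker loci summed to 63.2 and 91.9 FPKM after SRBC and 103 and 120 after PBS. In PBS library 2, where Ccl5 was highest, the T cell sum was lowest. Of the 10 NK loci 9 were also lower in PBS library 2 than in PBS library 1, Nkg7 among them (4.41 and 13.1 FPKM after SRBC and 8.001 and 2.45 after PBS), and the NK sum follows Klrd1, which holds most of it and ran the other way. Their part in the Ccl5 values was not tested. In bulk RNA, fewer cells of a type and less RNA per cell cannot be told apart.

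Ccl9 encodes a mouse CCR1 ligand (chromosome 11, 83572919 to 83578636). It measured 10.4 and 17.4 FPKM after SRBC and 7.16 and 8.27 after PBS. The groups did not overlap, but SRBC library 1 stood nearer to the PBS libraries than to SRBC library 2. The mean was 1.80-fold higher after SRBC (log2 fold change 0.73 ± 0.26 SE, limma adjusted p = 0.046), and 9 of 14 alternatives ended the call. Without SRBC library 2 its log2 fold change was 0.39 (adjusted p = 0.68). In the authors' deposited table its q-value was 0.039.

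**Figure D3:**
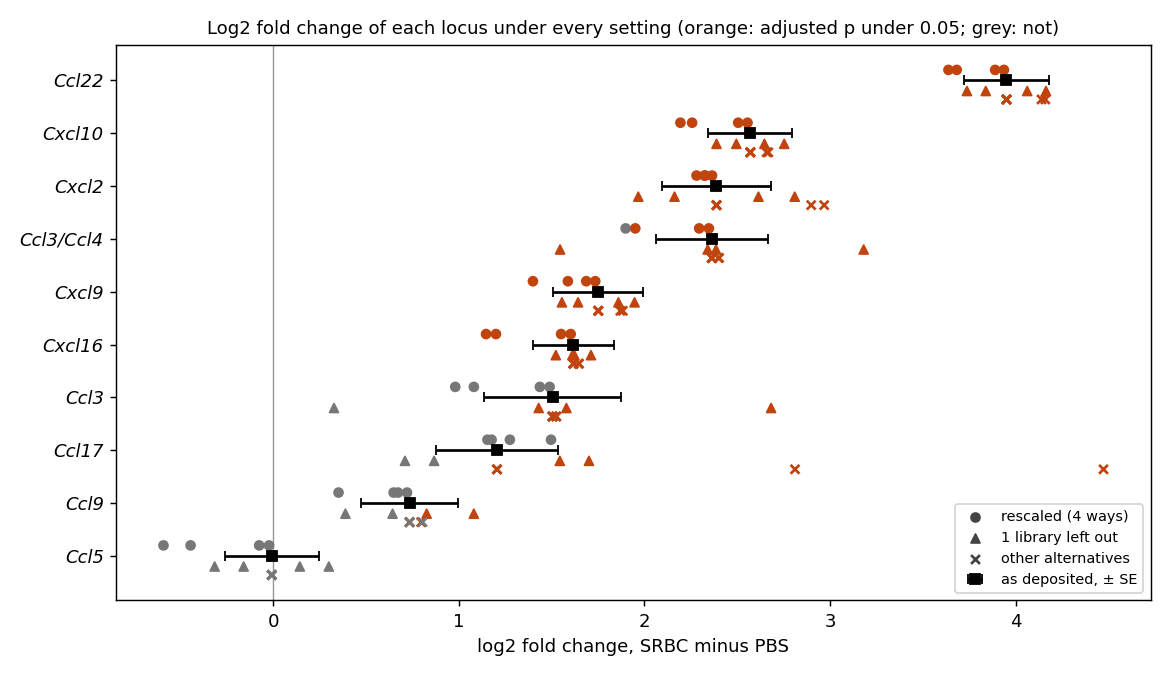
Log2 fold change, SRBC minus PBS, of each ligand locus as deposited (black squares, ± SE) and under the rescalings (circles), with a library left out (triangles) and under other alternatives (crosses), with orange for an adjusted p under 0.05 and grey otherwise. Ccl22, Cxcl10, Cxcl2, Cxcl9 and Cxcl16 are orange throughout, whereas Ccl3 runs from 0.33 to 2.68 when a PBS library is left out.

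The order of levels changed mainly through Ccl22. In SRBC cells the order from the top was Ccl5, Ccl3, the Ccl3/Ccl4 locus, Ccl22, Cxcl16, Cxcl10, Cxcl9, Ccl9, Cxcl2 and Ccl17. In PBS cells it was Ccl5, Ccl3, the Ccl3/Ccl4 locus, Cxcl16, Cxcl10, Ccl9, Cxcl9, Ccl22, Cxcl2 and Ccl17. Ccl22 thus stood 4 from the top after SRBC and 8 after PBS. After SRBC the library values of Ccl3 overlapped those of the Ccl3/Ccl4 locus, and those of Ccl9 overlapped those of Cxcl2. After PBS the neighbours that overlapped were Ccl3 with the Ccl3/Ccl4 locus, that locus with Cxcl16, Ccl9 with Cxcl9, and Cxcl9 with Ccl22. FPKM divides by transcript length, which makes such levels comparable between genes, but for transcripts as short as Ccl17 and Ccl5 (514 and 532 bases) this division is least certain.

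**Figure D4:**
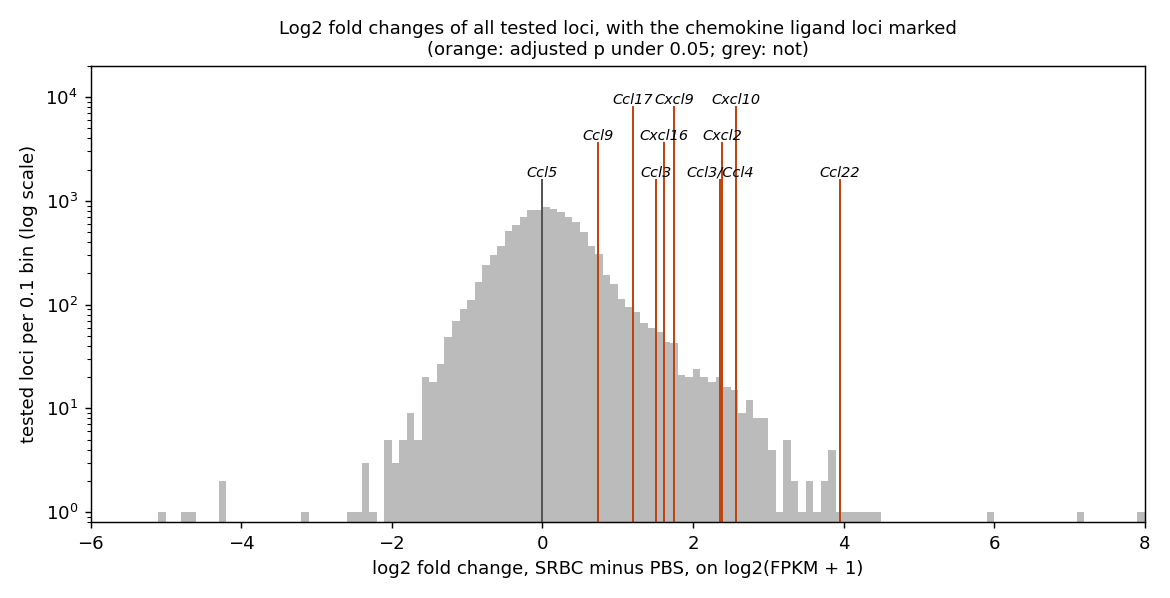
Histogram of log2 fold changes, SRBC minus PBS, of the 11020 tested loci in bins of 0.1 (log-scaled counts), with the chemokine ligand loci marked in orange where called and in grey where not. Ccl22 (3.95) lies in the right tail and Ccl5 (-0.0090) at the centre.

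The remaining chemokine ligands of the mouse were mostly below 1 FPKM. Of the other 31 symbols 29 were in the table, as 33 loci, of which 22 never reached 1 FPKM, 15 were at 0 in all libraries and 10 could be tested. Of these 10, 3 were called higher and 0 lower, against 13.5% and 6.2% of all tested loci, with a median log2 fold change of 0.39. One of the 3, Ccl1, entered the test through its SRBC values alone, and 2 of the remaining 9 were called higher. Xcl1, made mainly by NK and CD8+ T cells, measured 6.98 and 21.7 FPKM after SRBC and 9.83 and 2.32 after PBS, so that the groups overlapped although the locus was called (log2 fold change 1.17 ± 0.39 SE, limma adjusted p = 0.030). Ccl1, a CCR8 ligand, measured 1.23 and 2.51 after SRBC and 0.648 and 0 after PBS. Ppbp, a platelet chemokine, measured 6.06 and 6.93 after SRBC and 2.52 and 4.17 after PBS (limma adjusted p = 0.039). Pf4, also of platelets, measured 2.27 and 3.68 after SRBC and 1.38 and 1.34 after PBS and was not called (limma adjusted p = 0.079). None was lower at an unadjusted p under 0.05, and 4 were higher. Without SRBC library 2, 0 of the 10 were called by limma. In that setting the ligands Ccl22, Cxcl10, Cxcl2, Cxcl9 and Cxcl16 kept their calls.

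Receptors for these ligands were scarce in the same cells. Among the 8 receptor loci found, 5 could be tested, and 0 were called higher and 1 lower by limma (1 and 2 at an unadjusted p under 0.05). The lower one was Ccr2, a receptor of monocyte recruitment that the list includes although its established ligands are not among these 10, at 2.15 and 3.73 FPKM after SRBC and 5.98 and 6.09 after PBS (log2 fold change -0.86 ± 0.28 SE, limma adjusted p = 0.029). It was not called without either SRBC library, after quantile normalization or with no filter. Cxcr6, the receptor for Cxcl16, measured 1.25 and 1.32 FPKM after SRBC and 2.43 and 2.85 after PBS (limma adjusted p = 0.10). Cxcr2 measured 1.49 and 2.45 after SRBC and 1.02 and 1.21 after PBS, and Cxcr3 1.31 and 2.49 after SRBC and 2.099 and 1.87 after PBS, with neither called. Ccr1, Ccr3 and Ccr4 were below the minimum for testing, with Ccr4, the receptor for Ccl22 and Ccl17, at 0.196 and 0.324 FPKM after SRBC and 0.247 and 0 after PBS. Among 9 tested loci of other chemokine receptors 4 were called higher and 0 lower: both Ccr7 loci (611 and 717 FPKM after SRBC and 97.3 and 89.5 after PBS at the more abundant), Cxcr4 (86.8 and 96.7, against 36.3 and 53.0) and Cxcr5 (2.31 and 3.46, against 0.986 and 0.881). Cxcr5 reached the minimum in SRBC libraries alone, and 3 of the remaining 8 loci were called higher. Of all tested loci 13.5% were called higher and 6.2% lower.

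Genes of the pathways known to act on these ligands were counted from lists written with earlier results of these data known. Of 15 loci of NF-kB subunits and inhibitors, 13 were called higher and 0 lower, against 13.5% and 6.2% of all tested loci. The median log2 fold change of the 15 was 1.52. One of the 13, Tnip3, reached the minimum in SRBC libraries alone, which leaves 12 of 14. The called loci included Tnip3, an inhibitor gene (17.4 and 21.2 FPKM after SRBC and 0.324 and 0.606 after PBS), Bcl3, an NF-kB cofactor (313 and 311, against 52.1 and 42.4), Rel, a subunit (601 and 725, against 138 and 134), and Nfkbid (269 and 282, against 68.3 and 35.7 at the more abundant of its loci). A list written around Ccl17 and Ccl22 held 11 loci of the interleukin 4, TSLP and GM-CSF receptors and of STAT5, STAT6 and IRF4. Of the 11, 10 were called higher and 0 lower, with a median of 1.41. Stat5a measured 222 and 212 FPKM after SRBC and 12.7 and 14.6 after PBS. Irf4 measured 272 and 316 after SRBC and 77.9 and 55.7 after PBS. Csf2rb measured 202 and 222 after SRBC and 61.6 and 72.8 after PBS. The part of these genes in the ligand differences was not tested.

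The interferon list holds genes that move with Cxcl9 and Cxcl10 in many settings. It had 6 of 17 tested loci called higher and 1 lower, with a median of 0.40. Of all tested loci 13.5% were called higher and 6.2% lower. Isg15 measured 44.8 and 60.2 FPKM after SRBC and 16.1 and 23.3 after PBS, and Gbp5 measured 9.76 and 11.6 after SRBC and 3.83 and 3.65 after PBS. Ifnar1, an interferon receptor chain, was higher at 54.7 and 54.3 after SRBC and 22.8 and 30.1 after PBS, and Ifngr2 was higher at 67.2 and 75.5 after SRBC and 41.9 and 42.9 after PBS. The 1 locus called lower was another interferon receptor chain, Ifngr1, at 104 and 132 after SRBC and 187 and 191 after PBS (limma adjusted p = 0.027). Of 13 genes that process chemokines or their messenger RNAs, 2 were called higher and 3 lower. The share called higher was near that of all tested loci. Zc3h12c, a relative of the RNA-cleaving regulator Zc3h12a, measured 142 and 166 after SRBC and 10.6 and 10.7 after PBS, and Adam17, a sheddase gene, measured 53.0 and 56.4 after SRBC and 20.4 and 26.3 after PBS. The decay factor gene Zfp36l2 was lower, at 34.8 and 31.8 after SRBC and 156 and 181 after PBS. So was the protease gene Mmp12 (17.8 and 21.4, against 42.5 and 60.9). The part of the genes of both lists in the ligand differences was not tested.

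For each ligand the tested loci with the most similar profile over the 4 libraries were found by Euclidean distance between centred log2(FPKM + 1) values. For Ccl22 these were Tnfsf9 (distance 0.156; 84.4 and 86.7 FPKM after SRBC and 3.50 and 5.33 after PBS), the gene of the 4-1BB ligand, and Tnip3 (0.194). For Cxcl10 they were Pik3r1 (0.105) and Plscr1 (0.119), for Cxcl9 Acp5 (0.0846) and Arhgef3 (0.0891), and for Cxcl2 Cdkn1a (0.147) and Mapk6 (0.201). For the Ccl3/Ccl4 locus they were Ier3 (0.255; 71.0 and 82.0 FPKM after SRBC and 21.2 and 6.46 after PBS) and Fam46c (0.371). For Ccl3 alone they were Odc1 (0.271; 50.7 and 57.2 after SRBC and 53.9 and 8.52 after PBS) and Gem (0.319), which shared its low value in PBS library 2. The nearest were Psd and Vmn2r90 for Cxcl16, Hp1bp3 and Lysmd3 for Ccl5, Lsm2 for Ccl9, and Hist2h2ab and Adc for Ccl17. With 4 points such likeness mostly restates the group difference and the spread within each group.

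Markers of other cell types, which a sort of this kind can retain, were present. Counts of their calls stand beside 13.5% of all tested loci called higher and 6.2% lower. The erythroid list (8 loci) summed to 153 and 270 FPKM after SRBC and 88.0 and 21.1 after PBS, with 6 of 7 tested loci called higher and 0 lower (5 of 6 without the locus that reached the minimum in SRBC libraries alone), and the most abundant was the Hbb-b1 and Hbb-b2 locus (69.8 and 111, against 30.9 and 6.88). Of 8 tested neutrophil loci 3 were called higher and 0 lower. The called loci included S100a8 and S100a9 (20.4 and 38.9, against 31.4 and 2.50), for both of which the groups overlapped. The other was Retnlg, for which they did not overlap. Plasmacytoid markers summed to 74.3 and 128 after SRBC and 161 and 55.9 after PBS, with 0 of 8 called by limma (2 at an unadjusted p under 0.05). Macrophage markers summed to 237 and 296 after SRBC and 128 and 90.1 after PBS. The most abundant was Hmox1 (108 and 135, against 27.7 and 18.7), and 2 of 9 tested loci were higher. These 2 were Hmox1 and Spic (31.4 and 36.8, against 5.35 and 5.54), and they made up most of the difference in the sum. The other 7 were not called. Monocyte markers summed to 453 and 880 after SRBC and 527 and 582 after PBS, most of it Lyz2 (394 and 791, against 453 and 526). B cell markers summed to 57.9 and 76.9 after SRBC and 77.6 and 65.0 after PBS, while the NK list was led by Klrd1 (51.7 and 58.3, against 83.6 and 114), with Ncr1 at 0.751 and 1.20 after SRBC and 1.36 and 0.240 after PBS. Platelet markers summed to 10.4 and 11.8 after SRBC and 5.78 and 7.92 after PBS, with 1 of 2 tested loci called higher (Ppbp) and 0 lower. Of 8 tested monocyte loci 1 was called higher and 2 lower. Of 8 B cell loci 1 was higher, through its SRBC values alone, and 0 lower. Of 5 T cell loci 1 was higher and 0 lower, and of 5 NK loci 0 were higher and 1 lower. The macrophage, erythroid and platelet sums, like the ligand loci called higher, were above both PBS libraries in both SRBC libraries. By contrast, the neutrophil sum of PBS library 1 exceeded that of SRBC library 1. The part of these cells in the ligand differences was not tested.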

How the data were processed

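RNA-seq of sorted splenic CD4+ dendritic cells was read from a gene table of FPKM that the authors deposited. The submitters' processing notes name CASAVA, TopHat2 2.0.8b, Cufflinks 2.1.1 and the build mm10. Sources used here do not give the annotation, scaling option or strand setting. A q-value per locus from cuffdiff, which the authors deposited alongside, was copied and entered no fit.

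Of 30043 loci, 23657 were named, and those reaching FPKM 1 in 2 or more libraries (11020, 366 with several names) were tested. The model was limma 3.58.1 (R 4.3.3, moderated with an intensity trend) on log2(FPKM + 1), SRBC minus PBS, two-sided, with Benjamini-Hochberg adjustment over all of them. This scale understates fold changes of scarce transcripts. Residual degrees of freedom were 2, with 28.7 added by moderation, and an exact permutation of 2 against 2 libraries cannot go below p = 0.33. Depth was estimated from the commonest product of FPKM and length at low values in genes with 1 annotated transcript. Positions came from GENCODE M21 (GRCm38) and promoters from RefSeq, trimmed to end before the earlier annotated start. The procedure was run on data simulated with independent noise of its own fitted size. Such data cannot test it against differences that genes of a library share.

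Named genes are the ligands, up to 4 loci with the smallest p per pathway list, the ligands' receptors, per list of other cells the marker with the highest mean, and the 2 loci most similar to each ligand. Adam10, Zfp36, S100a8, S100a9, Retnlg, Ifngr1, Spic, Cd3e, Ncr1 and Nkg7 were named after their values were seen. Members and lists were chosen with earlier results of these data known. Some genes that fall under this rule are not reported here.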

Additional observations from a re-analysis of the deposited data

How the results depend on the processing

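With no filter on low values 751 loci were higher and 184 lower, with 5 ligand loci higher and 0 receptors lower. After quantile normalization 922 loci were higher, with 5 ligand loci higher, 1 other ligand higher and 0 receptors lower. With TPM 629 loci were higher and 1648 lower, with 6 ligand loci higher, 1 other ligand higher and 2 receptors higher and 3 lower. Upper-quartile rescaling left 6 ligand loci and 1 other ligand higher, and median-of-ratios rescaling left 6 and 2. As deposited, 9 ligand loci and 3 other ligands were higher. The cause of these shifts was not tested. Leaving out each library in turn gave 746 to 1641 loci higher and 273 to 993 lower, 7 to 8 ligand loci higher, 0 to 3 other ligands higher, and 3 to 5 receptors higher and 0 to 1 lower, and the lone library of a group is then assumed to vary like the other group. The log2 fold change of Ccl5 ran from -0.32 to 0.30 in these fits, positive without SRBC library 1 (0.14) or PBS library 2 (0.30). With the replicate number as a block 1684 loci were higher and 620 lower, 8 ligand loci were higher with the call of Ccl3 alone lost, and 1 other ligand was higher. Same-numbered libraries deviated together only weakly (r = 0.052 over 11020 loci), and the labels do not say that a number marks a shared animal or day. Depth limits Ccl17 most, at 13.5 fragments or fewer per library.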
